A study of Mus musculus with 6 samples.

Results

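The 10 genes described here encode the proteins that carry cholesterol from an endocytosed LDL particle to its use or storage in the cell. They are Lipa, Npc1, Npc2, Stard3, Stard4, Stard5, Osbp, Osbpl2, Soat1 and Nceh1, a list set by function. Earlier results of these data were known when the list was chosen. They were found on the array by matching the RefSeq accession of each probe to a gene symbol. All 10 had a probe and all 10 were tested, with 13 of the 55681 probes and 10 of the 24213 features tested (1 feature per gene or unnamed transcript). The arrays measured RNA of cultured adult hippocampal precursor cells, which divide in the dentate gyrus and can become neurons, taken from male C57BL6/JRj mice 8 weeks old. In the LDL group, 3 cultures received human LDL for 48 h, at 100 ug per ml in the treatment protocol although the sample descriptions write another unit of volume, and in the saline group 3 cultures received saline for the same time. Both groups grew attached to coated dishes with EGF and bFGF, which keep precursors dividing, at 20 ng/ml each. The 3 replicates of a group came from independent experiments on different passages. The labels do not say how many animals or isolations lay behind them, so p-values measure the spread between these cultures.

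Cells take up LDL by endocytosis and deliver it to late endosomes and lysosomes. Acid lipase there frees cholesterol from its esters, NPC2 and NPC1 pass it out of the organelle, and START domain and oxysterol-binding proteins move it between membranes. In the endoplasmic reticulum excess cholesterol is esterified for storage in lipid droplets, and the sterol sensor there also holds back SREBP2, the transcription factor of cholesterol synthesis genes. In neural cells cholesterol is mostly made in place, since the brain receives little lipoprotein from blood.

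The 6 one-colour Agilent arrays lay on 1 slide, and their number limits the precision. On each array 55.9% to 66.9% of probes passed the scanner's test against background. Of the 8 precursor markers 7 were tested, among them Nes and Sox2. Of 8 neuron markers 5 were well above background on all 6 arrays (Tubb3, Rbfox3, Snap25, Map2 and Syp), with log2 fold changes from -0.33 to 0.02 that did not pass. The other 3, Dcx, Neurod1 and Calb1, were well above background on 0 arrays. For microglia, 5 of 8 markers were well above background on all 6 arrays, with a median log2 fold change of -0.13, and 0 passed. They were Tmem119 at -0.41 (unadjusted p = 0.014, adjusted p = 0.514, LDL arrays below saline arrays), Cx3cr1 at -0.23 with a second probe at 0.22, C1qb at -0.13, Csf1r at 0.04 and Itgam at 0.0030. Of the remaining microglia markers, Aif1 and C1qa were well above background on 1 array each and P2ry12 on 0. Of 8 astrocyte markers the filament gene Gfap rose by 1.35 on the log2 scale (adjusted p = 0.0215) on its brighter probe, while its other tested probe had 0.15, and the other 7 markers were negative and did not pass. The part of such cells in the results below was not tested. Bulk RNA cannot tell fewer cells of a type from less RNA per cell. Levels are given throughout as log2 signal minus the 75th percentile of the array, and the level of one probe is not set against that of another.

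Stard4 fell after LDL, and the other 9 genes of the route did not pass the test. Stard4, a soluble START domain protein that carries sterol between membranes through the cytosol, was 2.83-fold lower with LDL. The other 9 had log2 fold changes between -0.18 and 0.21, of which 7 were positive and 2 negative. Over all features tested, 10585 of 24213 were positive. Of the 10 genes 0 were called higher and 1 lower by limma at an adjusted p of 0.05, against 0.0207% of all features called higher and 0.116% called lower. At an unadjusted p of 0.05, 1 of the 10 passed, against 7.49% of all features. The median log2 fold change was 0.09 over the 10 genes and -0.03 over all features tested. The median of the 10 became -0.06 without saline replicate 1.

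**Figure D1:**
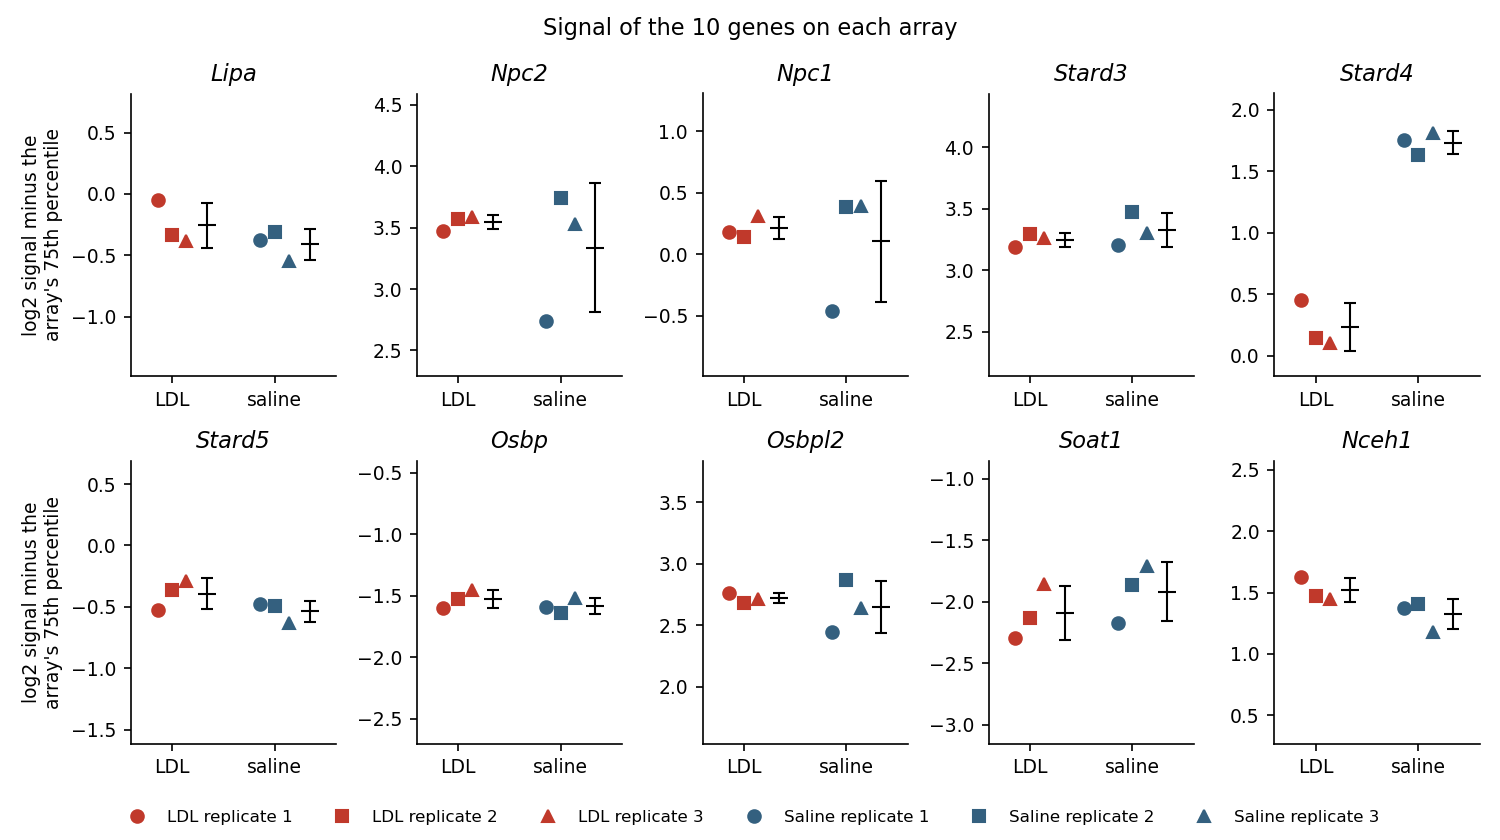
Signal of each of the 10 genes on each array, as log2 signal minus the 75th percentile of the array; every panel spans the same range on its vertical axis, points are single arrays, and the black bar is the mean with its SD (n = 3). The LDL arrays of Stard4 lie below all saline arrays. Saline replicate 1 (blue circle) lies below all other arrays for Npc2, Npc1 and Osbpl2. For Stard3 and Soat1 it lies below the other saline arrays but not below LDL replicate 1.

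In the lysosome, Lipa encodes the acid lipase that hydrolyses the cholesteryl esters of LDL. Its values were -0.05, -0.34 and -0.38 with LDL and -0.38, -0.31 and -0.55 with saline. The groups overlapped, and only LDL replicate 1 stood above every saline array. Lipa thus differed by 0.16 (log2 fold change, with an SE of 0.13 and a 95% interval of -0.15 to 0.46), with an adjusted p of 0.844. That interval runs from 1.11-fold lower to 1.38-fold higher. Without LDL replicate 1 the value was 0.05.

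Npc2 encodes the soluble protein of the lysosomal lumen that binds the freed cholesterol and hands it to NPC1. It had 3.48, 3.57 and 3.59 with LDL and 2.74, 3.74 and 3.53 with saline. The LDL arrays lay close together, and saline replicate 1 was far below the other saline arrays. For Npc2 this gave a log2 fold change of 0.21 (95% interval -0.38 to 0.79, SE 0.25, adjusted p = 0.903). Npc1, the membrane protein that moves cholesterol out through the limiting membrane of the organelle, had 0.18, 0.14 and 0.31 with LDL and -0.46, 0.38 and 0.39 with saline. Here too saline replicate 1 was the low array, and the other saline arrays lay above all LDL arrays. For Npc1 it gave 0.10 (95% interval -0.45 to 0.66, SE 0.24, adjusted p = 0.955). Without saline replicate 1 the values were -0.18 for Npc1 and -0.091 for Npc2, so that array decided both directions. SD on saline arrays was 0.49 for Npc1 and 0.53 for Npc2, against a median of 0.188 over all features.

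Of 20 lysosomal hydrolase genes measured, 0 passed in either direction. Positive values were found for 17 of them, against 10585 of all 24213 features, and the median log2 fold change was 0.27. An unadjusted p under 0.05 was found for 7 of the 20, against 7.49% of all features. Among those with the smallest p were Neu1 at 0.45, Ctsd at 0.43 and Gaa at 0.41 (adjusted p between 0.488 and 0.504), which encode a sialidase, an aspartic protease and an acid glucosidase. Second probes gave 0.48 for Ctsd and 0.17 for Gaa. Saline replicate 1 was also the low array here. Relative to the saline mean, the median of the list was 0.20, 0.26 and 0.24 on LDL replicates 1 to 3 and -0.23, 0.23 and -0.0052 on saline replicates 1 to 3. Without saline replicate 1 the list median was 0.14. The part of that array in the values of Npc1 and Npc2 beyond these numbers was not tested.

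Membrane proteins of the lysosome were also mostly positive, but with a lower median. Of 10 genes on the list of lysosomal membrane and cholesterol sensing, 0 passed, 9 were positive, and the median was 0.08. An unadjusted p under 0.05 was found for 1 of the 10, against 7.49% of all features. Scarb2, a lysosomal membrane receptor known to bind cholesterol, had 0.27 (adjusted p = 0.729), and Lamp1 and Lamp2, the main glycoproteins of that membrane, had 0.11 and 0.08, with 0.46 on a second probe of Lamp2. Tmem97, which binds NPC1 and lowers its amount, was the negative one at -0.39 (95% interval -0.76 to -0.01, unadjusted p = 0.0435, adjusted p = 0.649). It had 2.23, 2.12 and 2.13 with LDL and 2.28, 2.86 and 2.50 with saline. All LDL arrays lay below all saline arrays, but only narrowly below saline replicate 1.

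Stard3 encodes a START domain protein anchored in the late endosome that tethers it to the endoplasmic reticulum and moves sterol at the contact. Its values were 3.19, 3.30 and 3.26 with LDL and 3.20, 3.47 and 3.31 with saline. The groups overlapped. The difference for Stard3 was -0.08 on the log2 scale (95% interval -0.33 to 0.18, SE 0.11, adjusted p = 0.915), an interval that spans 1.26-fold lower to 1.13-fold higher.

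Stard4 had 0.46, 0.14 and 0.10 with LDL and 1.75, 1.63 and 1.81 with saline. All LDL arrays lay far below all saline arrays, and LDL replicate 1 was the highest of them. Means were 0.23 ± 0.19 with LDL and 1.73 ± 0.09 with saline (SD, n = 3 each), which gave a log2 fold change of -1.50 (SE 0.13, 95% interval -1.80 to -1.20, limma adjusted p = 0.0127). Only 14 of the 24213 features had a smaller p and only 20 a lower log2 fold change. The dimmer of its 2 probes had -2.77, -2.87 and -3.07 with LDL and -2.02, -1.09 and -1.30 with saline. It moved the same way and with groups apart, and when each probe was tested on its own its log2 fold change was -1.43 (SE 0.24, unadjusted p = 0.000625, adjusted p = 0.201), which did not pass, while the brighter probe did (adjusted p = 0.0174). The value of Stard4 was -1.39 between the 2 LDL and 2 saline arrays of slide row 1. Between the single LDL and saline arrays of slide row 2 it was -1.71. The call was lost without LDL replicate 2 (adjusted p = 0.113), LDL replicate 3 (0.0794), saline replicate 2 (0.074) or saline replicate 3 (0.12), with a log2 fold change between -1.61 and -1.43 over the 6 arrays left out in turn. It was also lost with the replicate number as a block (adjusted p = 0.0909).

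Stard5, a soluble cholesterol-binding protein of the same START subfamily, had -0.53, -0.36 and -0.29 with LDL and -0.48, -0.49 and -0.63 with saline. LDL replicate 1 fell within the saline range and the other LDL arrays lay above it. Stard5 differed by 0.14 on the log2 scale (95% interval -0.11 to 0.40, SE 0.11, adjusted p = 0.831). Its dimmer probe had -2.50, -2.67 and -2.44 with LDL and -3.05, -2.73 and -2.79 with saline, which did not overlap, with 0.32 (95% interval 0.01 to 0.62, unadjusted p = 0.0422, adjusted p = 0.696). Neither Stard5 probe passed.

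**Figure D2:**
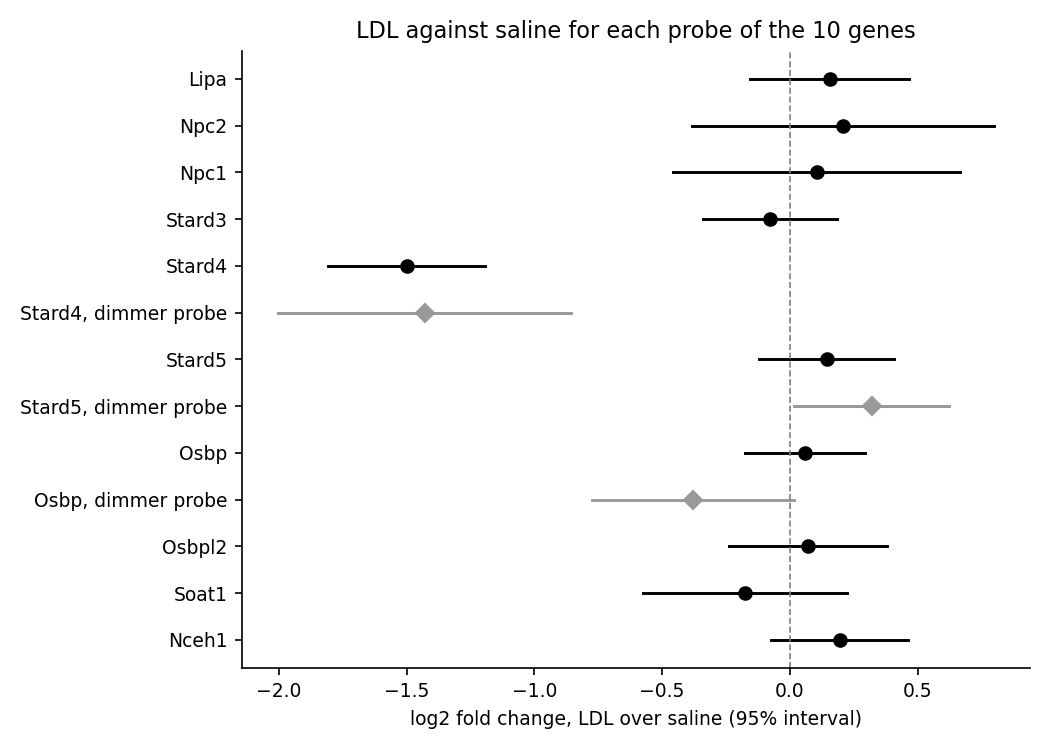
Log2 fold change of LDL over saline with its 95% interval for each of the 13 probes of the 10 genes, each probe fitted on its own; black circles are the probes that stand for a gene and grey diamonds the dimmer second probes. Both Stard4 points, at -1.50 and -1.43, lie left of the intervals of the other 11 probes.

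Of 9 other START domain genes measured of 12 listed, 0 passed and 7 were positive, with a median of 0.04. Cert1, which carries ceramide rather than sterol, had -0.20 (adjusted p = 0.774) with LDL arrays below saline arrays. Stard8 at 0.18, Stard13 at 0.11 and Stard6 at 0.17 followed by p, and their groups overlapped. The second probes of Stard13 and Stard6 each had 0.26. Among measured START domain genes, Stard4 was thus the one that passed.

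Osbp encodes the founding oxysterol-binding protein, which exchanges cholesterol of the endoplasmic reticulum for phosphatidylinositol 4-phosphate of the Golgi. Osbp had -1.60, -1.52 and -1.45 with LDL and -1.59, -1.64 and -1.51 with saline. The arrays of both groups were interleaved, and Osbp differed by 0.06 on the log2 scale (95% interval -0.17 to 0.28, SE 0.10, adjusted p = 0.935). Its 2 probes disagreed in sign, since the dimmer one had -4.05, -4.20 and -3.77 with LDL and -3.89, -3.43 and -3.55 with saline, a value of -0.38 (95% interval -0.78 to 0.02, adjusted p = 0.734). With the mean of both probes the value of Osbp was -0.16. Neither direction passed.

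Osbpl2 encodes ORP2, a relative known to deliver cholesterol to the plasma membrane. It had 2.77, 2.68 and 2.72 with LDL and 2.45, 2.87 and 2.64 with saline. The LDL arrays fell between the saline arrays, of which saline replicate 1 was again the lowest. Osbpl2 differed by 0.07 on the log2 scale (95% interval -0.23 to 0.37, SE 0.13, adjusted p = 0.941), and -0.033 without saline replicate 1. Of 8 other oxysterol-binding protein genes measured of 10 listed, 0 passed, 5 were positive and 3 negative, and the median was 0.04. Osbpl8 had -0.25, Osbpl9 0.24, Osbpl11 0.11 and Osbpl3 -0.30 (adjusted p between 0.806 and 0.85).

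Other sterol carriers and proteins of membrane contact sites numbered 11, all measured, and 0 passed, with a median of 0.07. Gramd1b, an Aster protein that draws cholesterol from the plasma membrane into the endoplasmic reticulum, had the smallest p of them. It had -2.22, -2.25 and -2.41 with LDL and -2.74, -2.86 and -3.01 with saline. The groups did not overlap, and the 1.49-fold difference did not pass over all features (log2 fold change 0.58, 95% interval 0.31 to 0.85, SE 0.11, unadjusted p = 0.00151, adjusted p = 0.262). Sacm1l, a phosphatase that consumes phosphatidylinositol 4-phosphate, had 0.29, Tspo 0.15 and Scp2, the sterol carrier protein, 0.11 (adjusted p between 0.794 and 0.871).

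Soat1 encodes the enzyme of the endoplasmic reticulum that esterifies cholesterol for storage. It had -2.30, -2.13 and -1.85 with LDL and -2.18, -1.87 and -1.71 with saline. The groups overlapped, with LDL replicate 1 the lowest array and saline replicate 3 the highest. The difference for Soat1 was -0.18 on the log2 scale (95% interval -0.57 to 0.22, SE 0.17, adjusted p = 0.867). Nceh1, a neutral hydrolase known to break cholesteryl esters down again in macrophages, had 1.63, 1.48 and 1.45 with LDL and 1.38, 1.41 and 1.18 with saline. All LDL arrays of Nceh1 lay above all saline arrays. The difference of 0.20 on the log2 scale (95% interval -0.07 to 0.46, SE 0.11, adjusted p = 0.772) did not pass. Groups that did not overlap were found for 1 of the 10 genes above saline (Nceh1) and 1 below (Stard4), against 5.82% and 8.77% of all features.

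Around storage, 5 of 9 listed genes were measured and 0 passed. Plin2, a coat protein of lipid droplets, had 2.40, 2.42 and 2.35 with LDL and 1.69, 2.25 and 1.98 with saline, without overlap (log2 fold change 0.42, 95% interval 0.06 to 0.78, adjusted p = 0.59). Plin3, a coat protein of nascent droplets, lay the other way, with -0.54, 0.13 and 0.17 with LDL and 0.20, 0.33 and 0.29 with saline, also without overlap (log2 fold change -0.35, adjusted p = 0.771). The brain cholesterol hydroxylase gene Cyp46a1 had -0.07 and the hormone-sensitive lipase gene Lipe 0.05 (adjusted p between 0.923 and 0.965). Of genes next to these steps, Scd1, the desaturase that makes the oleate used in cholesteryl esters, fell by 1.53 on the log2 scale (adjusted p = 0.0335). Abca1, the exporter of cellular cholesterol, had 0.33 (95% interval -0.04 to 0.71, adjusted p = 0.716).

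**Figure D3:**
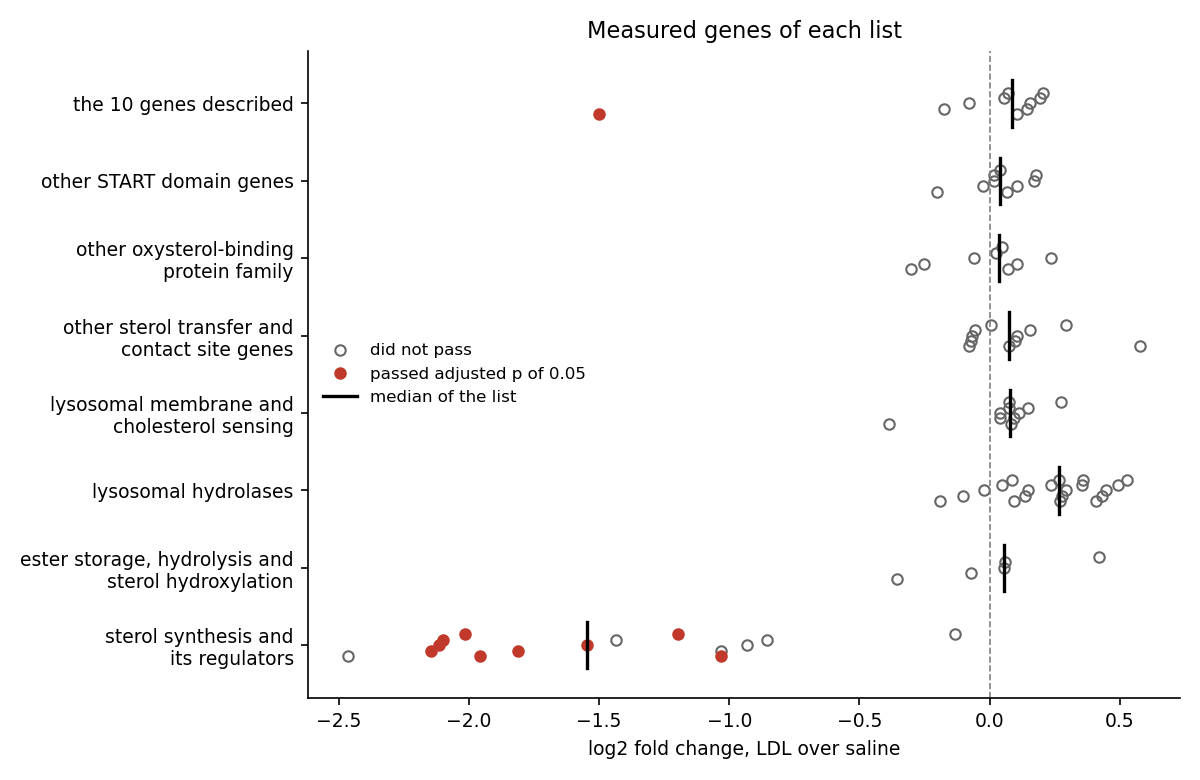
Log2 fold change of LDL over saline for each measured gene of the 10 described and of 7 lists around them; filled red points passed an adjusted p of 0.05, open points did not, and black bars are list medians. Stard4 is the red point of the top row and lies within the range of the sterol synthesis genes in the bottom row, while the medians of the 6 other lists lie between 0.04 and 0.27.

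The genes whose pattern over the 6 arrays was most like that of Stard4 were enzymes of sterol synthesis. Among the 5 named genes with the highest Pearson r were Lss, Fdps, Msmo1 and Cyp51, each with r = 0.991. With 6 arrays in 2 groups r follows the group difference, and these 4 fell, with log2 fold changes of -1.55 for Lss, -1.96 for Fdps, -1.92 for Msmo1 and -1.81 for Cyp51. After the group means were taken out, their r with Stard4 was between 0.56 and 0.68, over deviations that share only these arrays. Of 15 sterol synthesis and regulator genes measured, 9 fell, 6 did not pass, all 15 were negative and the median was -1.55. The 9 included Hmgcs1 at -2.15 (-1.26 on a second probe), Idi1 at -2.10, Insig1 at -2.02 and Sc5d at -1.03. As background, most of the list and Stard4 are known targets of SREBP2, and earlier results on these arrays were known when the list was drawn up. The log2 fold change of Stard4 lay within their range, below that of Sc5d and above that of Hmgcs1.

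Promoter windows were searched to show what the letters near the start sites hold. Stard4, the one of the 10 genes that fell, had no window here. Genes that fell and genes that did not could therefore not be compared among the 10. RefSeq windows of GRCm38.p6, from 250 bases before to 50 after a start, were matched for 8 of the 10 genes, without Npc1 and Stard4. The sterol regulatory element was searched as TCACNCCAC on both strands. It was found in 408 of 32851 windows (1.24%), in 1 of 8 windows of the genes described and in 1 of 10 windows of sterol synthesis genes. Those 10 windows belonged to 8 of the 15 listed genes, not all of which passed. The lysosomal CLEAR element, searched as TCACGTGA, was in 320 of all windows (0.974%), in 0 of the 8 and in 3 of 17 windows of lysosomal hydrolases. It contains the shorter box CACGTG, which was in 7.15% of all windows, in 1 of the 8, in 3 of 10 sterol synthesis windows and in 8 of 17 windows of lysosomal hydrolases. The matches shown are the element in Stard3, whose signal did not pass, that in Hmgcs1, which fell, the short box in Nceh1, and the lysosomal element in Ctsd, with the matched letters in capitals and all written 5′ to 3′ on the strand of the gene.
Stard3, chr11:98358142-98358180, plus strand: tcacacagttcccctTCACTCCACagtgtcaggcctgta
Hmgcs1, chr13:119690199-119690237, plus strand: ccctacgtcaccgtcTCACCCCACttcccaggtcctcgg
Nceh1, chr3:27182963-27182998, plus strand: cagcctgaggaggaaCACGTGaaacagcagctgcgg
Ctsd, chr7:142387904-142387941, minus strand: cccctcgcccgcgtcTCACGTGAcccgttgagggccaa
The element began 211 bases before the start of Stard3 and 137 before that of Hmgcs1, the box of Nceh1 26 before, and the element of Ctsd 99 before. The lysosomal element was also in the windows of Gla and Ctsa. Their log2 fold changes were -0.10 for Gla and 0.09 for Ctsa, with -0.11 on a second probe of Ctsa. Neither these genes nor Ctsd passed. A match is a string of letters and not a measured binding site, and windows without a match say nothing of the factor.

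Over the 18 alternatives of processing and arrays, Stard4 kept its direction in all and passed in 10, with log2 fold changes between -1.61 and -1.39. The other 9 genes gave 162 values under these alternatives, of which 0 passed in limma (lowest adjusted p 0.356) and 158 kept the direction. The 4 that did not were Npc1, Npc2 and Osbpl2 without saline replicate 1 and Osbp with the mean of its probes.

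**Figure D4:**
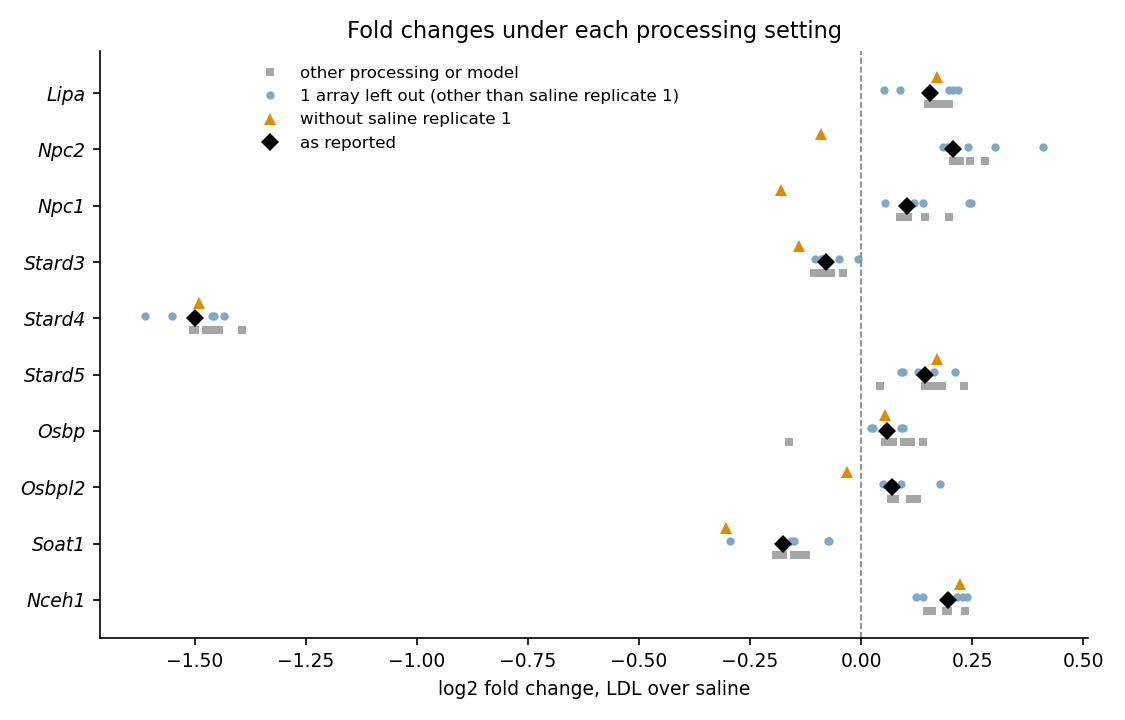
Log2 fold change of LDL over saline for each of the 10 genes as reported (black diamonds), with 1 array left out (circles, and orange triangles for saline replicate 1) and under other processing or models (grey squares). All Stard4 values lie between -1.61 and -1.39, and the orange triangles of Npc2, Npc1 and Osbpl2 lie left of 0.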

How the data were processed

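RNA (100 ng a sample) was labelled with 1 dye, per the labels' protocols. The deposited spot intensity values are on a linear scale, background-subtracted and detrended per the file headers, and not normalized between arrays. A further table deposited by the authors holds log2 values, aligned between arrays by a method not given in the sources used here, which served as an alternative. The submitters' processing notes name limma 3.34.9 under R 3.4.4, and Agilent Feature Extraction 10.7.3.1.

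From the processed signal of each array log2 was taken, and the array's 75th percentile subtracted. Neither control spots nor outlier-flagged spots entered, and a probe's spots were averaged. A probe was tested if well above background (at least 50% of its spots) on all 3 arrays of either group, with at least 2 values in each group. The files hold accessions and no symbols, so 28331 probes were named through RefSeq accessions (assembly GRCm38.p6, names and promoter windows only). The brightest probe stood for a gene. No probe sequence was examined, so cross-hybridisation between near-identical transcripts could not be checked.

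The difference of LDL minus saline was fitted with limma 3.58.1 under R 4.3.3 (lmFit, eBayes, two-sided, no covariates) across all 24213 features, with Benjamini-Hochberg adjustment. With 3 arrays in each group, the smallest p of an exact permutation test would be 0.1. The fit was also run on simulated data with noise drawn independently for each feature and array. Those data held no shift shared across an array and no pairing, so they cannot show how the fit behaves under either. The genes and lists were chosen with earlier results of these data known. Named were the 10 genes, list members that passed or else had the smallest p (up to 4 a list), Scd1, Abca1, and the 5 genes most like Stard4. Gla and Ctsa were named for their promoter matches. Some genes that the rule would name are not reported here, and the counts include them. Alternatives were other background correction, normalization, filter, probe summary, variance model, blocks, slide row 1 alone, and each array left out. Figures used matplotlib 3.10.9.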

Additional observations from a re-analysis of the deposited data

How the results depend on the processing

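The count of 5 features called higher was 9 under normexp with quantiles, 8 on the authors' values and 8 under median scaling. It was 16 with trended robust variances, 3 with the replicate block, and 0 if dim probes were kept, if slide row was a block or in slide row 1 alone. The count of 28 called lower was 10 with the replicate block, 15 with a slide row block, and 0 without the filter or in slide row 1. Where limma called 0, 1777 features without the filter and 870 in slide row 1 had an unadjusted p under 0.05. With any single array omitted, 0 to 7 were higher and 0 to 25 lower. The count of 1 described gene called lower, Stard4, was 0 without the filter (adjusted p = 0.11), with the replicate block (0.0909), with the slide row block (0.0554), and for slide row 1 (0.562), and 0 to 1 with 1 array left out; over all settings its adjusted p ran from 0.00135 to 0.562, and the cause was not tested. Of the 9 sterol synthesis genes that fell, the count was 4 with the replicate block, 0 without the filter or in slide row 1, and 0 to 8 with 1 array left out. The median of the 10 genes ranged from -0.062 to 0.17 with 1 array left out. Single omissions gave -0.18 to 0.25 for Npc1, -0.091 to 0.41 for Npc2 and -0.033 to 0.18 for Osbpl2, each negative only without saline replicate 1, and Osbp was -0.16 with the mean over probes. List medians near 0 changed sign, for ester storage to -0.0037 with normexp and -0.0012 with the authors' values. With 1 array left out that median ran from -0.061 to 0.10, that of oxysterol-binding proteins from -0.047 to 0.097 and that of sterol transfer genes from -0.022 to 0.14. Deviations of same-numbered arrays had correlations of 0.24, -0.08 and 0.21, and those of differently numbered arrays ran from -0.27 to 0.08. With 3 arrays a group these values cannot settle whether the arrays were paired. The main fit took no pairing and called 33 features, against 13 with the replicate block. That block lost the call of Stard4 and changed no call of the other 9 genes.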

Other observations

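The spread between arrays differed between the groups for some of the 10 genes. The SD on saline arrays was larger than that on LDL arrays for 6 of the 10 genes and for 75.7% of all features tested. The ratio of saline SD to LDL SD was 8.79 for Npc2, 5.47 for Npc1 and 5.06 for Osbpl2, the genes for which saline replicate 1 was the lowest array. It was 0.47 for Stard4, 0.68 for Lipa, 0.70 for Stard5 and 0.88 for Osbp, for which the LDL arrays spread more. On LDL arrays LDL replicate 1 was the highest for Stard4, Lipa, Nceh1 and Osbpl2. No test of these spreads was made, and 3 arrays a group give a poor estimate of an SD.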
